A study of Homo sapiens with 3 samples.

Results

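Back-spliced RNAs from 8 genes of protein folding and membrane shape in the endoplasmic reticulum were followed through 3 pancreatic cell lines. The lines were SW1990 and PANC-1, both labelled as pancreatic ductal adenocarcinoma (PDAC) cells, and HPDE, labelled as non-tumour pancreatic ductal epithelial cells. SW1990 and PANC-1 grew in DMEM with fetal bovine serum, while HPDE cells were kept in KSFM, a keratinocyte medium without serum, plus recombinant epithelial growth factor and bovine pituitary extract. Each line gave 1 library from total RNA, so line and medium cannot be told apart and no difference has a replicate check. The genes were P4HB, PDIA3, CANX, CALR, GANAB, HSPA5, HSP90B1 and RTN4, and a junction was a member when both of its ends lay inside 1 gene's window on hg19. This gave 21 distinct junctions of 17156 in the whole series, with 9 of 3764 in SW1990, 15 of 13341 in PANC-1 and 7 of 3370 in HPDE. They came from 5 of the 8 genes. The genes were chosen with earlier results of these tables known, and RTN4, P4HB and GANAB count as selected on their RPM ratios between these lines, so the differences are described and not tested. In the SW1990 table, the only one with host symbols, all 9 junctions carried the symbol of their window's gene.

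A circular RNA (circRNA) forms when the end of an exon is spliced back to the start of the same or an earlier exon, and the read across that back-splice junction is what is counted. Proteins that enter the endoplasmic reticulum receive a glucose-tipped sugar chain. Glucosidase II, whose catalytic subunit is GANAB, trims it, and the lectin chaperones calnexin (CANX) and calreticulin (CALR) then hold the protein while the disulfide isomerase PDIA3 works on it. P4HB is protein disulfide isomerase and also a subunit of the enzyme that hydroxylates collagen prolines. HSPA5 (BiP) and HSP90B1 (GRP94) are the chaperones of the HSP70 and HSP90 families there, and RTN4 is a reticulon that bends the membrane into tubules. Duct cells of the pancreas secrete less protein than acinar cells, but all cells use this machinery.

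Levels are in RPM, back-splice reads scaled by the authors to a library total, and 1 read was worth 0.0208 RPM in SW1990, 0.0273 in PANC-1 and 0.0240 in HPDE. The lists held 1273083, 1885511 and 1408352 back-splice reads in SW1990, PANC-1 and HPDE, of which 84.2, 79.0 and 81.2% lay at RPPH1, ribosomal RNA and the mitochondrial genome. Outside those loci the member junctions held 0.866% of the reads in SW1990 (Clopper-Pearson, 0.826 to 0.907%). The share was 0.559% for PANC-1 (0.536 to 0.583%) and 0.406% for HPDE (0.382 to 0.431%). By RPM the order differed, with member sums of 36.1 in SW1990, 60.3 in PANC-1 and 25.7 in HPDE. In each line 1 junction weighed heavily, with 32.5% of member reads in SW1990 (P4HB), 57.7% in PANC-1 (RTN4) and 65.8% in HPDE (P4HB). All intervals are at 95% and cover counting error only. Of 9 ductal epithelial marker genes, 5 were hosts named in SW1990, with 23.2 RPM in SW1990, 0 in PANC-1 and 10.1 RPM in HPDE from 5, 0 and 2 of them, where a gene is seen only if SW1990 names it. Of 6 mesenchymal or fibroblast marker genes only ZEB1 was a named host, at 0.748, 3.46 and 0.0959 RPM in the same lines. No immune or acinar marker was a named host. The part of these differences between the lines in the results below was not tested.

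The exons inside each junction were read from the length of its genomic span, because the annotation used is on another build. A span had to equal, to the base, the distance from the start of 1 exon to the end of another in the gene's leading GENCODE 29 transcript. Of 3491 named SW1990 junctions, 86.1% had such an equal span in some transcript of their host, against 3.01% with the span taken as 1 base shorter and 3.12% as 1 base longer. Among the members, 20 of 21 junctions could be placed in this way. The exceptional one, in P4HB, is described with that gene.

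The sequences across the back-splice junctions that carry most of the reads are shown first, since they tell apart the RNAs named below. Each has the last 20 bases of the exon at the junction's 3′ side in lower case, followed by the first 20 bases of the exon it is joined to in capitals. All are 5′ to 3′ in the sense of the transcript and come from the GENCODE 29 transcripts on GRCh38, with P4HB, GANAB and RTN4 on the minus strand and PDIA3 and CANX on the plus strand. They were built from annotated exons and not read from the libraries.
P4HB exons 3 to 4: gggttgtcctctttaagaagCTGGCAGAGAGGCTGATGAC
P4HB exons 2 to 4: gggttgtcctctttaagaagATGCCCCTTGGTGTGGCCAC
PDIA3 exons 2 to 7: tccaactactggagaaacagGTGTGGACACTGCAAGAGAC
PDIA3 exons 6 to 8: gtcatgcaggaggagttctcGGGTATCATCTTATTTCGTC
PDIA3 exons 3 to 5: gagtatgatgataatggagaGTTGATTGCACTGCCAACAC
CANX exons 2 to 14: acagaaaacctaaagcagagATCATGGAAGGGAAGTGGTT
CANX exons 2 to 4: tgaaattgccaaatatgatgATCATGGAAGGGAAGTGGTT
CANX exons 2 to 3: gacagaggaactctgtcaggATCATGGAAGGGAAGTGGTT
GANAB exons 2 to 4: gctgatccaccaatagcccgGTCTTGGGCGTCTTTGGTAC
RTN4 exons 2 to 3: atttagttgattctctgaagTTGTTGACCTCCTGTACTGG
The P4HB pair shares its lower-case side and the CANX sequences share their capitals, so these junctions differ at 1 end only.

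Summed over junctions, the 5 genes did not share 1 order of the lines. By RPM, RTN4, PDIA3 and CANX were highest in PANC-1, P4HB was highest in SW1990, and GANAB stood at like levels in SW1990 and PANC-1 with no HPDE read. The place of PDIA3, CANX and GANAB depends on scaling: relative to back-splice reads outside the abundant loci, the SW1990 over PANC-1 ratio was 1.36 for PDIA3, 1.01 for CANX and 2.75 for GANAB, and CANX was at 0.916 in PANC-1 over HPDE. RTN4 stayed highest in PANC-1 and P4HB in SW1990 under each of the 3 other scalings. The place of P4HB rests on a 134-base junction listed in SW1990 only and given no exon. Without it P4HB keeps 7.98 RPM in SW1990, 7.66 in PANC-1 and 17.3 in HPDE. In PANC-1 against HPDE, 3 of 5 genes were higher by 2-fold or more, 1 was lower by 2-fold or more and 1 lay within 2-fold, where 66.4% of 1587 hosts were higher and 11.4% lower. For SW1990 against HPDE the counts were 3, 0 and 2, where 58.8% of 1790 hosts were higher and 14.4% lower. In SW1990 against PANC-1 they were 1, 2 and 2, where 27.4% of 2063 hosts were higher and 39.7% lower. That balance turned with scaling. Relative to back-splice reads outside the abundant loci, 2 genes were higher and 1 lower, beside 47.0% and 15.4% of hosts, and relative to all back-splice reads they were again 2 and 1, beside 39.9% and 22.0%. The median log2 ratio of the 5 genes was 2.69, 1.56 and -0.93 in these comparisons, beside 2.06, 1.67 and -0.49 over all hosts; scaled outside the abundant loci, the last pair was 0.44 and 0.88. Hosts outside the 8 genes could be named only through SW1990, which raises ratios of SW1990 over another line.

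**Figure D1:**
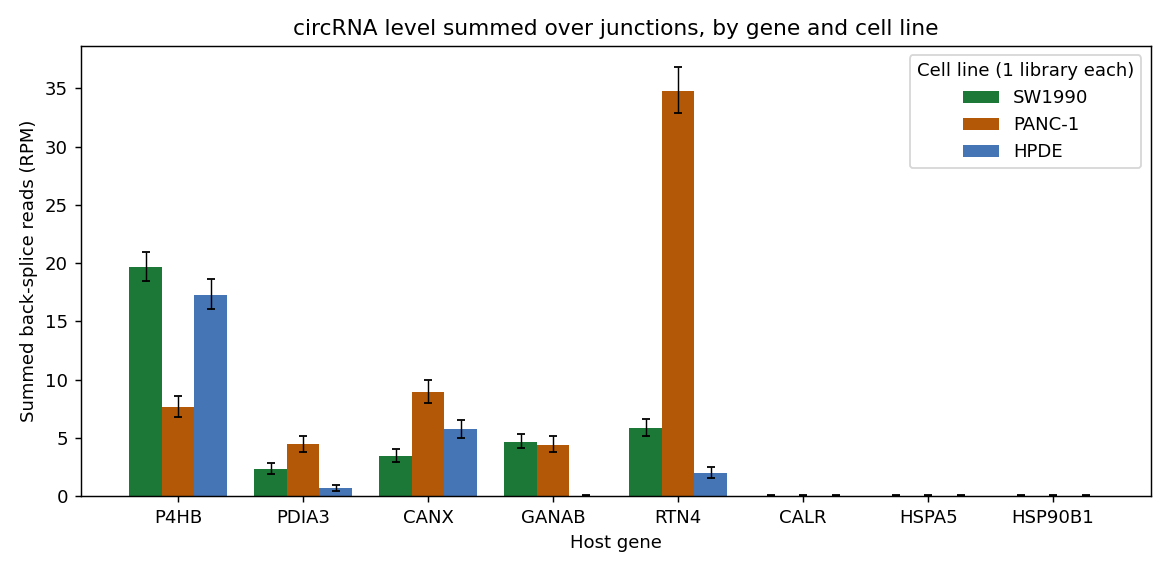
Bars give the RPM summed over all junctions of each gene in SW1990, PANC-1 and HPDE (1 library each), and error bars are 95% Poisson intervals. RTN4 in PANC-1 is the tallest bar at 34.8 RPM, P4HB is high in SW1990 (19.7 RPM) and HPDE (17.3 RPM), and CALR, HSPA5 and HSP90B1 have no bar.

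**Figure D2:**
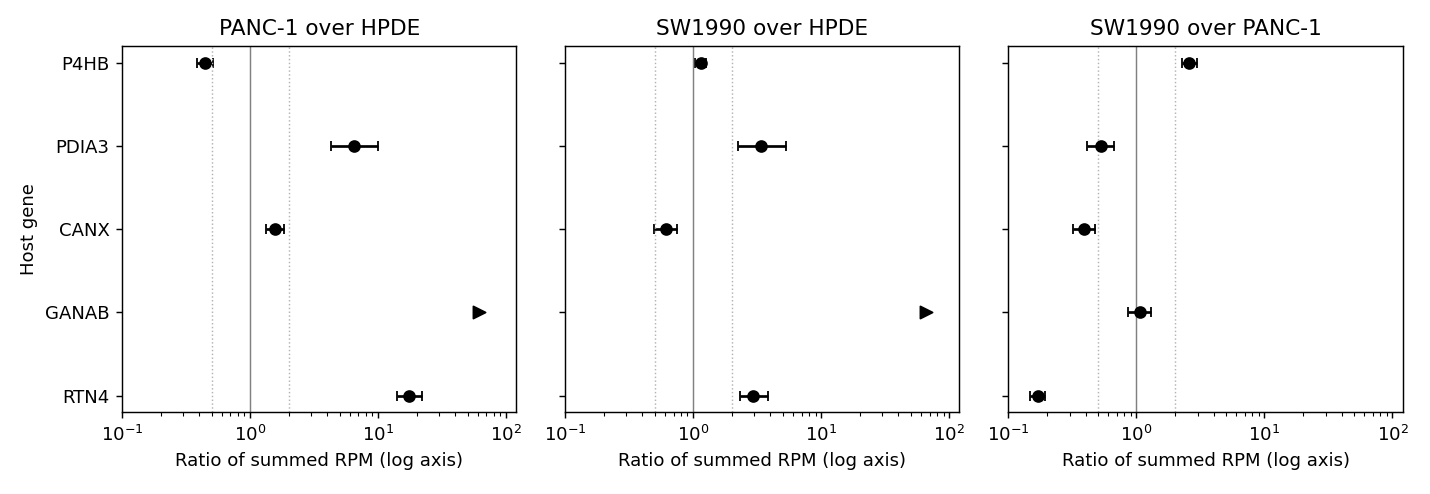
Points give the ratio of summed RPM between 2 lines on a log axis, with 95% exact conditional binomial intervals; the grey line marks equality and dotted lines mark 2-fold. Triangles are lower bounds for GANAB, which had no HPDE read, and CANX lies on different sides of equality in PANC-1 (1.56) and SW1990 (0.609) over HPDE.

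The same comparisons were made junction by junction. Among the 11 member junctions with at least 10 reads over PANC-1 and HPDE, 6 were higher by 2-fold or more and 5 lower in PANC-1, where 72.0% of 6701 junctions were higher and 21.1% lower. For SW1990 against HPDE, 6 of 11 were higher and 4 lower, where 44.0% of 3541 junctions were higher and 45.7% lower. In SW1990 against PANC-1, 5 of 10 were higher and 3 lower, where 19.5% of 6687 junctions were higher and 72.0% lower. Most of these differences rest on a junction that 1 of the 2 lists lacks. With reads in both lists there were 4, 4 and 5 member junctions in the same comparisons. Over the 3 lists, 3 of 21 member junctions (14.3%) were found in all, 4 (19.0%) in 2 and 14 (66.7%) in 1, where all 17156 junctions gave 3.84, 11.7 and 84.5%. Those in all lists include RTN4 and exons 3 to 4 of P4HB, from genes that count as selected on their RPM ratios. The sharing is thus a description only.

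P4HB, the disulfide isomerase, showed a different leading junction in each line. The junction of exons 2 to 4 at chr17:79813018-79817263 had no read in SW1990, no read in PANC-1 and 705 reads in HPDE (16.9 RPM, 15.7 to 18.2), the rank of 41 among HPDE junctions outside the abundant loci. It was at least 271-fold lower in SW1990 and at least 207-fold lower in PANC-1 than in HPDE, with a line at 0 set to 3 reads. The junction of exons 3 to 4 at chr17:79813018-79813462 ends at the same exon 4 but starts 1 exon later, and it was at 7.98 RPM in SW1990 (384 reads), 7.66 RPM in PANC-1 (281 reads) and 0.384 RPM in HPDE (16 reads). It thus held 40.4% of P4HB reads in SW1990, 100% in PANC-1 and 2.22% in HPDE (1.27 to 3.58%). Between SW1990 and PANC-1 its ratio was 1.04 (0.890 to 1.22). The exon 3 to 4 RNA would be 272 bases long and the exon 2 to 4 RNA 479 bases, all coding, if every annotated exon between the ends is kept.

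The remaining 59.6% of P4HB reads in SW1990 came from a junction of only 134 bases at chr17:79801751-79801884, with 566 reads (11.8 RPM, 10.8 to 12.8). Neither PANC-1 nor HPDE listed it. Its span equals the length of exon 3, but it lies 11133 bases from the other junctions, on the side of the gene's 3′ end, so no exon was given to it. With all 3 junctions summed, P4HB stood at 19.7 RPM in SW1990 (18.5 to 21.0), 7.66 RPM in PANC-1 (6.79 to 8.61) and 17.3 RPM in HPDE (16.1 to 18.6). In PANC-1 the sum was 2.26-fold lower than in HPDE (1.96 to 2.60), whereas the shared junction of exons 3 to 4 was 20-fold higher (12.1 to 35.4). The P4HB sum and its junction of exons 3 to 4 therefore point in opposite directions in that comparison. The junction of exons 2 to 4 was lower in PANC-1, like the sum. Without junctions spanning under 500 bases, which removes those of 134 and 445 bases, HPDE alone keeps P4HB reads.

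**Figure D3:**
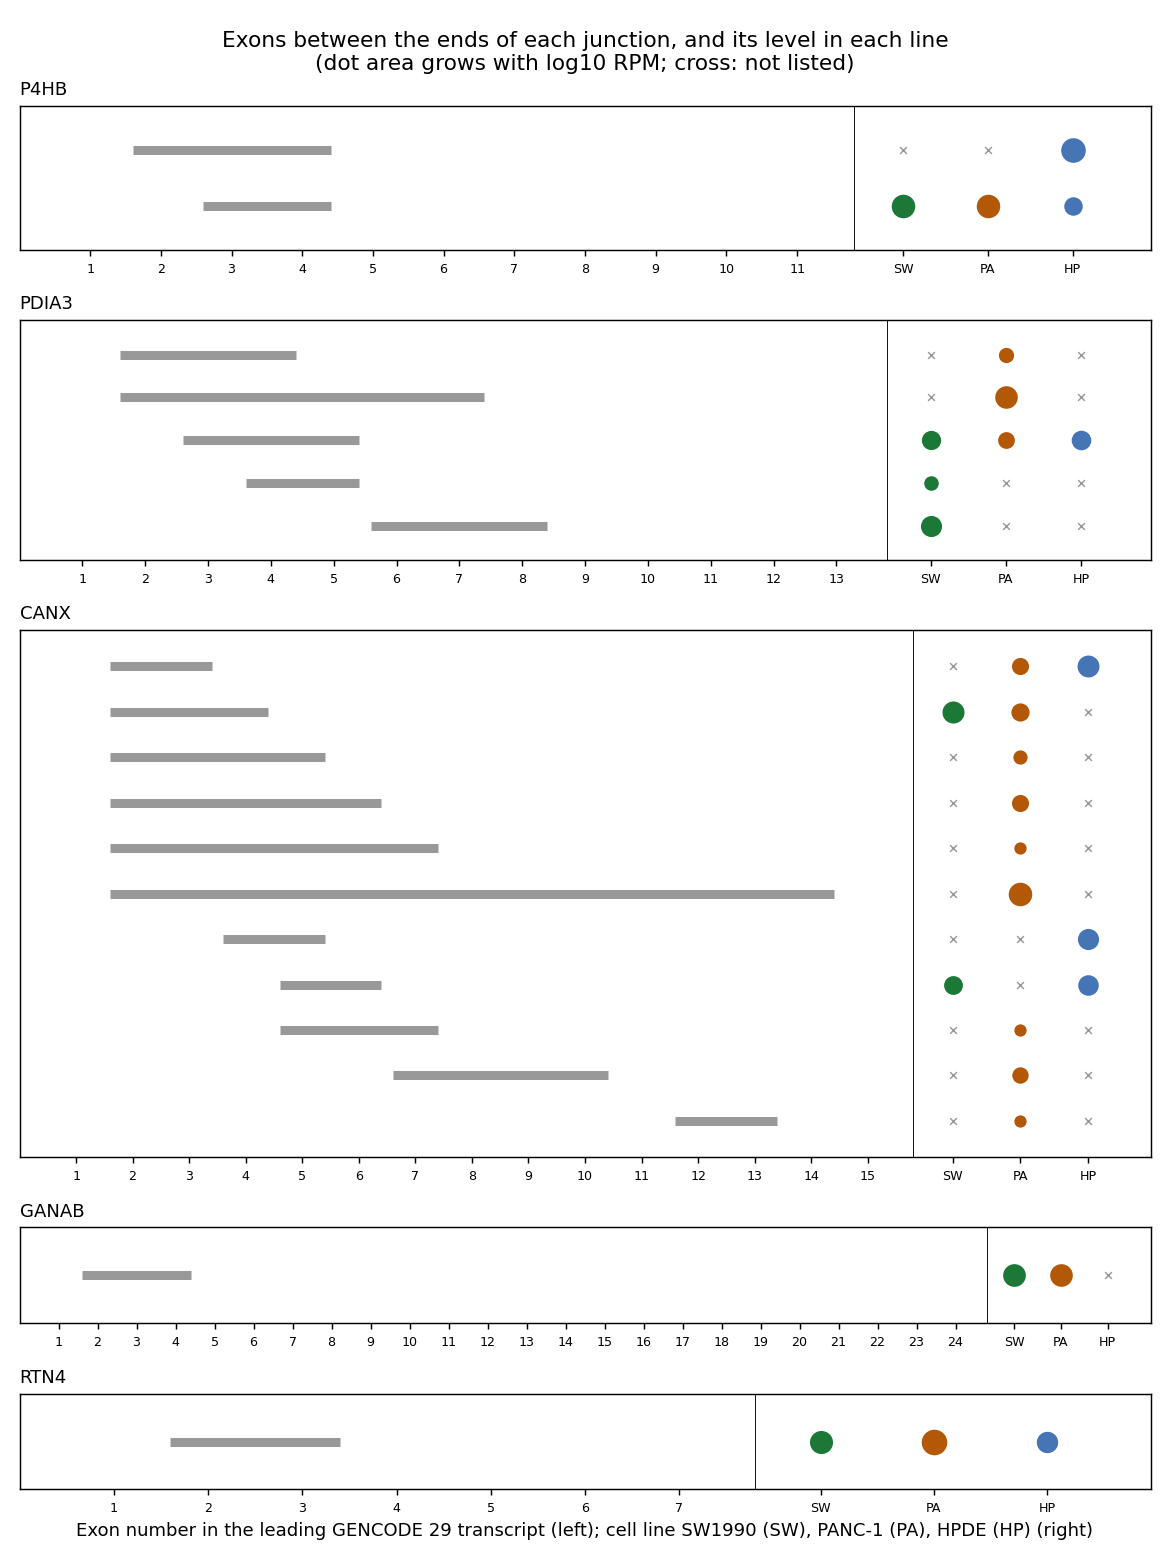
Grey bars span the exons between the ends of each placed junction, by exon number in the leading transcript. Dots on the right show its level in SW1990, PANC-1 and HPDE, with area growing with log10 RPM and crosses where a list lacks it; the 134-base P4HB junction is not drawn. No bar reaches the first or the last exon, and 6 of the 11 CANX bars begin at exon 2.

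PDIA3, the isomerase that works with the lectin chaperones, had 5 junctions, and again each line had its own leading one. The junction of exons 2 to 7 at chr15:44046022-44058210 was found in PANC-1 only, at 4.23 RPM (155 reads, 94.5% of PDIA3 reads there). The junction of exons 6 to 8 at chr15:44057648-44059108 was found in SW1990 only, at 1.70 RPM (82 reads, 72.6%). The junction of exons 3 to 5 at chr15:44048847-44055404 was in all lists, with 28 reads in SW1990 (0.582 RPM), 6 in PANC-1 (0.164 RPM) and 29 in HPDE (0.695 RPM), where it held every PDIA3 read. In PANC-1 this shared RNA was 4.25-fold lower than in HPDE (1.73 to 12.5). Its SW1990 over HPDE ratio was 0.836 (0.479 to 1.46). The other junctions had 3 reads each. The PDIA3 sum was 2.35 RPM in SW1990 (1.93 to 2.82), 4.47 RPM in PANC-1 (3.81 to 5.21) and 0.695 RPM in HPDE (0.466 to 0.999), 3.38-fold (2.23 to 5.27) and 6.43-fold (4.31 to 9.90) higher than HPDE in SW1990 and PANC-1. Between SW1990 and PANC-1 the ratio of sums was 0.525 by RPM, 1.02 relative to all back-splice reads and 1.36 relative to those outside the abundant loci. Without the exon 2 to 7 junction the PDIA3 ratio turned to 0.353 in PANC-1 over HPDE and to 9.56 in SW1990 over PANC-1. A processed pseudogene, PDIA3P1, carries PDIA3 exon sequence, and the authors' handling of reads that fit both is not given in the sources used here.

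CANX, a membrane-bound lectin chaperone, had the most junctions of the 8 genes, with 2 in SW1990, 9 in PANC-1, 3 in HPDE and 11 in all. In PANC-1, 292 reads (7.96 RPM, 7.08 to 8.93) crossed the junction of exons 2 to 14 at chr5:179132680-179153760, which spans 21081 bases and takes in all but the first and last exon. Neither SW1990 nor HPDE listed it. In SW1990 the junction of exons 2 to 4 at chr5:179132680-179134191 led with 146 reads (3.03 RPM, 86.9% of CANX reads), against 12 reads in PANC-1 (0.327 RPM) and none in HPDE. It was 9.27-fold higher in SW1990 than in PANC-1 (5.15 to 18.3). In HPDE the junction of exons 2 to 3 at chr5:179132680-179133332 led with 116 reads (2.78 RPM, 48.5%), against none in SW1990 and 7 in PANC-1 (0.191 RPM).

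HPDE also had 72 CANX reads at exons 4 to 5 (chr5:179134133-179135381, 1.73 RPM), a junction found in that line only. At exons 5 to 6 (chr5:179135240-179136060), SW1990 had 22 reads (0.457 RPM), PANC-1 none and HPDE 51 (1.22 RPM), so the RNA was 2.68-fold lower in SW1990 than in HPDE (1.59 to 4.63). The remaining 6 CANX junctions were in PANC-1 only, with 1 to 7 reads each. The junctions that start at exon 2 together held 3.03 RPM in SW1990, 8.75 in PANC-1 and 2.78 in HPDE. The CANX sum was 3.49 RPM in SW1990 (2.98 to 4.06), 8.95 RPM in PANC-1 (8.0 to 9.97) and 5.73 RPM in HPDE (5.03 to 6.51). With all junctions it lay within 2-fold of HPDE in both PDAC lines, but without the exon 2 to 14 junction the PANC-1 over HPDE ratio was 0.171. It was 2.56-fold lower in SW1990 than in PANC-1 (2.12 to 3.11). The direction between SW1990 and PANC-1 depends on that RNA and on scaling: the ratio was 3.55 without the exon 2 to 14 junction, and 1.01 when scaled to back-splice reads outside the abundant loci.

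**Figure D4:**
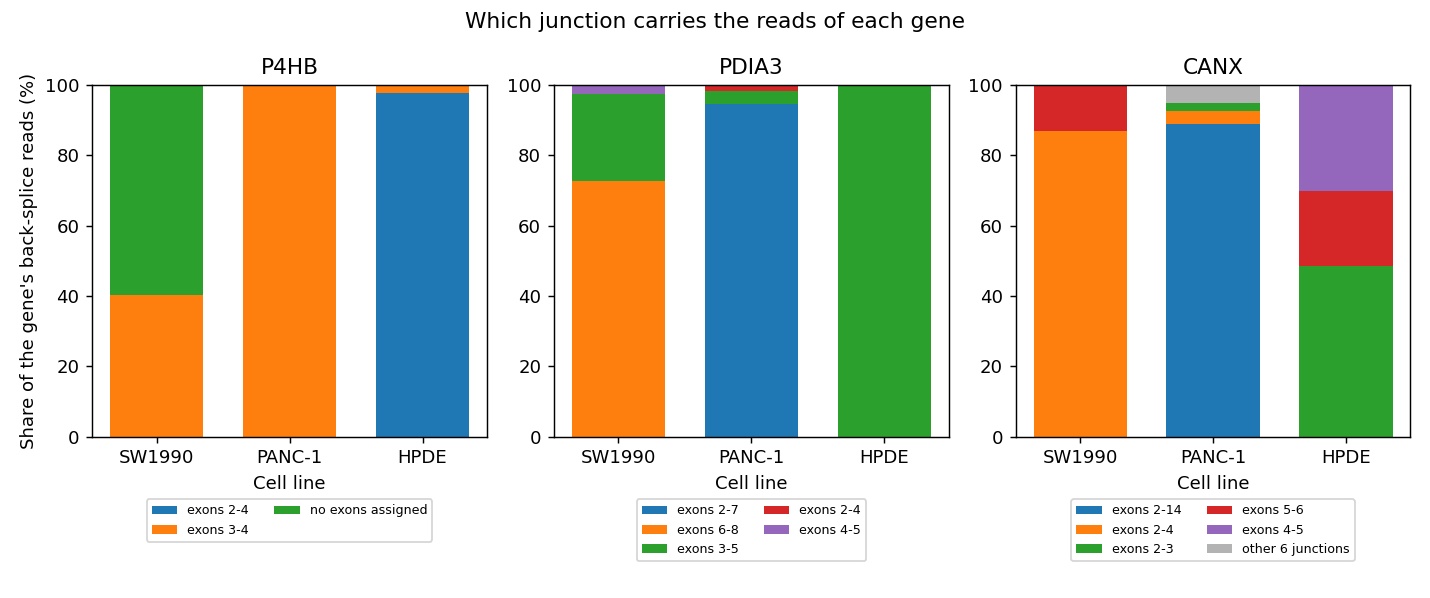
Stacked bars give the share of each gene's back-splice reads, in percent, carried by each junction in SW1990, PANC-1 and HPDE, with colours set within each gene and grey for junctions beyond the 5 with most reads. The colour that fills most of a bar changes from line to line, as with exons 2 to 14 of CANX at 89.0% in PANC-1 and exons 2 to 4 at 86.9% in SW1990.

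GANAB, the catalytic subunit of glucosidase II, had 1 junction, of exons 2 to 4 at chr11:62406455-62407203. It had 226 reads in SW1990 (4.69 RPM, 4.10 to 5.35), 162 in PANC-1 (4.42 RPM, 3.76 to 5.15) and none in HPDE. The SW1990 over PANC-1 ratio was 1.06 (0.865 to 1.31), and it became 2.07 when scaled to total back-splice reads and 2.75 when scaled to those outside the abundant loci. Against HPDE set to 3 reads, the RNA was at least 65.3-fold higher in SW1990. The bound for PANC-1 was at least 61.4-fold higher. These are no bounds if something besides read number kept the junction off the HPDE list. PRKCSH, the other subunit of glucosidase II, did have HPDE reads: its host sum was 6.98 RPM in SW1990, 11.2 in PANC-1 and 3.88 in HPDE.

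RTN4, the reticulon, also had 1 junction, at chr2:55209651-55214834, and it was listed in every line. It had 283 reads in SW1990 (5.88 RPM, 5.21 to 6.61), 1277 in PANC-1 (34.8 RPM, 32.9 to 36.8) and 83 in HPDE (1.99 RPM, 1.59 to 2.47). In PANC-1 the junction ranked 25 outside the abundant loci, against 99 in SW1990 and 380 in HPDE. RTN4 counts as selected on its RPM ratios between these lines, so the gaps between these intervals support nothing. In SW1990 it was 5.92-fold lower than in PANC-1 (5.20 to 6.76). That ratio, 0.169 by RPM, was 0.328 relative to all back-splice reads and 0.436 relative to those outside the abundant loci, and the PANC-1 over HPDE ratio of 17.5 was 10.3 on the last scale. The span matched exons 2 to 3 of the leading transcript of 7 exons, and all 9 basic coding transcripts of RTN4 contain the same pair, so the junction does not tell the short RTN4 isoforms from the long ones. The pair has 347 bases, all coding. In bulk RNA, a lower level in a line can come from fewer cells that make the RNA or from less of it in each cell, and these cannot be told apart.

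CALR, HSPA5 and HSP90B1 had no listed junction in any line. A library at 0 reads allows up to 3 reads, which is 0.0623 RPM in SW1990, 0.0818 in PANC-1 and 0.0719 in HPDE, unless a list lacks a junction for another reason. These genes have enough exons for an internal back-splice, with 9 in CALR, 8 in HSPA5 and 18 in HSP90B1, against 7 in RTN4 and 11 in P4HB. Their longest introns measured 2649, 986 and 3407 bases. In P4HB, GANAB, RTN4, PDIA3 and CANX the longest intron had 7794, 6830, 22388, 7117 and 6576 bases, so each gene with a listed junction had a longer one. The median intron did not part the genes in this way. It had 143.5, 281 and 533 bases in CALR, HSPA5 and HSP90B1. In P4HB, GANAB, RTN4, PDIA3 and CANX it had 383.5, 175, 2832, 1232.5 and 962.5 bases. Lengths are for the leading transcript of each gene, and a link to the missing junctions was not tested.

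The placed junctions shared features of position, which were not themselves used to choose the genes. None of the 20 used the first or the last exon. This does not set them apart, as it held for all but 0.106% of 2826 SW1990 junctions placed in their host's leading transcript. The spliced length of the 20 ran from 201 to 1728 bases (median 351.5) over 2 to 13 exons. At most 3 bases were untranslated, just before the CANX start codon. Of the SW1990 members, 3 of 8 began at exon 2 (37.5%), beside 22.6% of those 2826 junctions, and in PANC-1 10 of 15 did and in HPDE 3 of 7. The longest intron of the gene bordered 4 of 8 placed members in SW1990 (50.0%, beside 32.1%), 11 of 15 in PANC-1 and 4 of 7 in HPDE. In reads, those junctions held 88.5% of placed member reads in SW1990, where the 2826 placed SW1990 junctions gave 40.5%. They held 99.4% in PANC-1 and 85.8% in HPDE. No such shares over all junctions were computed for PANC-1 or HPDE, so their counts and read shares have nothing to stand beside. The read shares weigh reads, and RTN4, P4HB and GANAB count as selected on their RPM ratios. The counts may not be free of that choice. Of the 2826 placed SW1990 junctions, the 32.1% beside the longest intron held 40.5% of the reads. Counts and read shares are thus a description only. They also leave out the unplaced 134-base P4HB junction, with 566 SW1990 reads. The member counts are small, and junctions of 1 gene share its introns. Sharing of an end with another listed junction was seen for 15 of 21 members (71.4%) and 53.0% of all junctions.

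**Figure D5:**
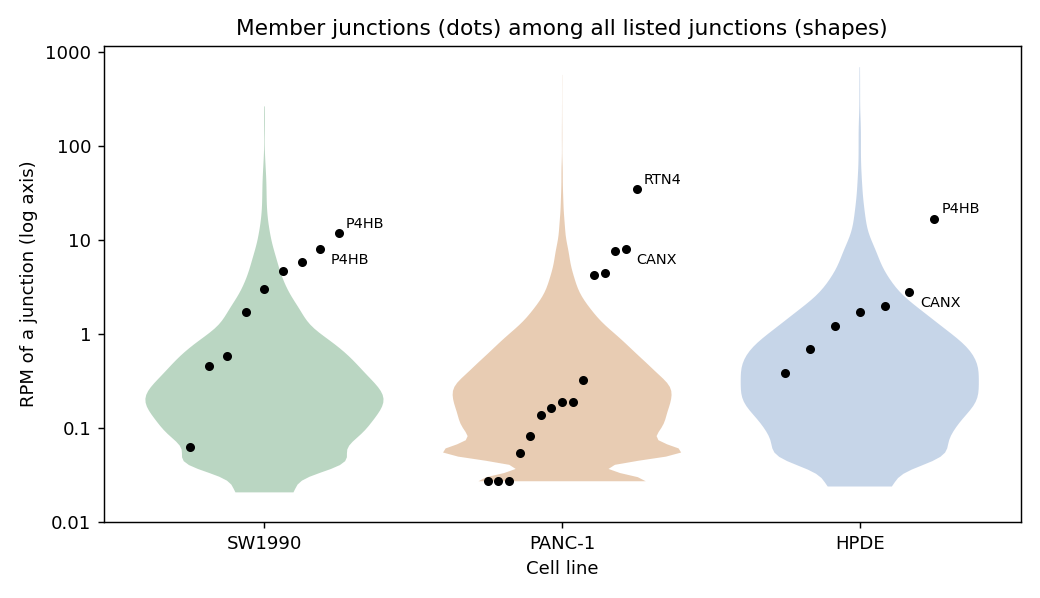
Dots give the RPM of each member junction on a log axis, in order of level within SW1990, PANC-1 and HPDE, with the 2 highest named. Shapes give the spread of all listed junctions outside the abundant loci. The highest members are P4HB at 11.8 RPM in SW1990, RTN4 at 34.8 RPM in PANC-1 and P4HB at 16.9 RPM in HPDE.

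Within its own list, the median member junction had 146 reads in SW1990, 7 in PANC-1 and 72 in HPDE, where the median of all junctions outside the abundant loci was 10, 7 and 13. The SW1990 members with most reads (566, 384, 283 and 226) come from P4HB, RTN4 and GANAB, which count as selected on their RPM ratios. The medians are thus a description only. Among 647 other junctions with reads in all lines and a host symbol, the one nearest in log2 RPM over the 3 lines was found for each shared member. For RTN4 it was ZKSCAN1 at chr7:99621042-99621930, with 2.74 RPM in SW1990, 16.6 in PANC-1 and 2.30 in HPDE, at a Euclidean distance of 1.55 log2 units. For exons 3 to 4 of P4HB it was ASPHD1 at chr16:29916173-29917280 (2.56, 5.15 and 0.432 RPM in SW1990, PANC-1 and HPDE), at a distance of 1.75. For exons 3 to 5 of PDIA3 it was SEC31A at chr4:83787961-83788469 (0.540, 0.164 and 0.695 RPM), at 0.11. With 3 lines, likeness of this kind is a description only.

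Other genes of the organelle were read as host sums from a list of 138 symbols, of which 34 were named hosts. Only 38.5% of PANC-1 and 45.5% of HPDE junctions could be given a host, so a host at 0 there may have reads that were not named, and its ratio to the 3-read limit is no bound. In PANC-1 against HPDE, 17 of 22 were higher by 2-fold or more, 1 lower and 4 within 2-fold, beside 66.4% of all hosts higher and 11.4% lower. The median log2 ratio was 2.85 in the list and 2.06 over all hosts. PDIA4, a disulfide isomerase, VAPA, a membrane contact protein, and STT3B, a catalytic subunit of oligosaccharyltransferase, stood highest, with 4.61, 4.47 and 3.93 RPM in PANC-1 and no named HPDE read. RPN2, a further subunit of that enzyme, was 3.83-fold lower (2.24 to 6.92).

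In SW1990 against HPDE, 14 of 23 hosts of the list were higher, 1 lower and 8 within, close to the 58.8% higher and 14.4% lower of all hosts (medians 1.91 and 1.67). PDIA4, SUN2 and SUN1 stood highest, with 3.99, 3.84 and 1.72 RPM in SW1990 and no named HPDE read, the SUN proteins sitting in the inner nuclear membrane. The lower one was the isomerase PDIA6 at 2.40-fold (1.91 to 3.02), which lost that call when scaled to all back-splice reads or to those outside the abundant loci. In SW1990 against PANC-1, 6 of 29 hosts were higher, 15 lower and 8 within, beside 27.4% of all hosts higher and 39.7% lower. The medians were -1.03 in the list and -0.49 over all hosts, and they turned to 0.34 and 0.88 outside the abundant loci. There, 10 hosts of the list were higher and 4 lower, beside 47.0% and 15.4% of all hosts.

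By RPM, STT3B was 15.8-fold lower in SW1990 than in PANC-1 (8.75 to 31.2), VAPA 7.18-fold (4.84 to 11) and the stress sensor ATF6 6.56-fold on 4 SW1990 reads (2.20 to 26.4). SUN2, and SSR2 and SSR1 of the translocon-associated complex, had 3.84, 1.54 and 0.436 RPM in SW1990 and no named PANC-1 read. PDIA4 resembled GANAB, with 3.99 RPM in SW1990, 4.61 in PANC-1 and no named read in HPDE. PDIA6 had 2.41, 5.32 and 5.78 RPM in SW1990, PANC-1 and HPDE. By RPM, the disulfide isomerases P4HB, PDIA3, PDIA4 and PDIA6 thus had no common order of the lines.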

How the data were processed

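The data are back-splice junctions from RNA sequencing of 3 human cell lines, SW1990, PANC-1 and HPDE, with 1 library per line. Per the submitters' processing notes, TopHat2, TopHat and HTSeq were used on hg19, without versions; for the circRNA caller and its filters, neither name nor settings were found in the sources. Per the file headers the deposited values are RPM, and the SW1990 table also holds the deposited count of back-splice reads and a host symbol. The totals behind the authors' RPM came to 48.1, 36.7 and 41.7 M reads in SW1990, PANC-1 and HPDE. In every library 100% of RPM values were whole multiples of 1 read within 0.05 reads, and they equalled the deposited count for 3764 SW1990 junctions. The PANC-1 and HPDE tables each hold 1 emptied line, not analysed here.

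Ratios are between the authors' RPM values, with at least 10 reads over the 2 libraries, a 2-fold threshold, and 3 reads in place of 0. No test between conditions was possible with 1 library each. An exact conditional binomial test on recovered reads (two-sided, Benjamini-Hochberg, adjusted p under 0.05 and 2-fold) was run beside it and compares libraries only. For PANC-1 over HPDE it called 4770 junctions as higher, 1379 as lower. For SW1990 the numbers were 1523 higher, 1588 lower relative to HPDE, then 1229 higher, 4761 lower relative to PANC-1. Ratios and calls were first tested on simulated data with known answers. Intervals are Poisson, Clopper-Pearson or exact conditional binomial at 95%. Reads are not known to be independent molecules.

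Members, gene lists and tests were chosen with earlier results of these data known. Junctions were matched by identical coordinates, and named when they led their gene in a line, held reads in at least 2 lines or at least 20% of their gene's reads. Of the list of 138 symbols, up to 3 hosts with the highest ratios per direction, past 2-fold, were named. Other hosts were named through SW1990 symbols of identical, end-sharing or overlapping junctions (98.1% of SW1990, 38.5% of PANC-1 and 45.5% of HPDE junctions). Exons come from GENCODE 29 by span length; no coordinates were carried between builds. Python 3.11.15, numpy 2.4.6, pandas 2.3.3, scipy 1.17.1 and matplotlib 3.10.9 were used. Alternatives covered scaling, the limit for 0 reads, the read minimum, the threshold, short spans, leading junctions and coordinate tolerance.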

Additional observations from a re-analysis of the deposited data

Results flagged for a closer look

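The P4HB sum was lower in PANC-1 than in HPDE, with a ratio of 0.443 (0.385 to 0.509), and higher in SW1990 than in HPDE, with a ratio of 1.14 (1.03 to 1.26), so the PDAC lines lay on different sides of HPDE. The difference between the lines was not tested, and both ratios share the HPDE library. The opposite order was seen for the CANX sum, with a ratio of 1.56 in PANC-1 over HPDE (1.32 to 1.85) and 0.609 in SW1990 over HPDE (0.497 to 0.745), also not tested. When scaled to back-splice reads outside the abundant loci, the CANX ratios were 0.916 and 0.924, on the same side of HPDE, while those of P4HB were 0.260 and 1.73. The P4HB split rests on single junctions. Without the 134-base junction alone, P4HB keeps 7.98 RPM in SW1990, 7.66 in PANC-1 and 17.3 in HPDE. Both PDAC lines then lie below HPDE. Without spans under 500 bases, HPDE alone kept P4HB reads. That setting drops the 134-base junction listed in SW1990 only and the 445-base junction of exons 3 to 4. With 0 set to 3 reads, the ratios over HPDE were then at most 0.00484 in PANC-1 and 0.00369 in SW1990. Without the junction of exons 2 to 4 the P4HB ratios were 20 in PANC-1 and 51.4 in SW1990 over HPDE. Without the exon 2 to 14 junction the CANX ratios were 0.171 in PANC-1 and 0.609 in SW1990 over HPDE, both below 1.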

How the results depend on the processing

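Of 138 recomputed counts of members or list hosts, 118 stayed within 1.5 times the reported count. At least 20 reads moved none of them further. Nor did a limit of 1 read or ends matched within 5 bases, but these could not. At the 10-read minimum a line at 0 set to 3 reads already passes 2-fold. No member junctions lay within 5 bases of each other at both ends. The exact binomial test was run too, but as members were selected on these ratios its member calls support nothing. For genes lower in PANC-1 against HPDE the count became 0 at a fold of 3, beside 8.0% of hosts. Without the leading junctions, which left 3 genes to compare, 2 were lower and 1 higher, beside 11.5% and 66.4% of hosts. For SW1990 against HPDE, 1 gene was lower without spans under 500 bases, beside 14.8% of hosts. For SW1990 against PANC-1, genes higher were 2 under both scalings to back-splice reads, beside 39.9% (total) and 47.0% of hosts. They were 0 at a fold of 3 and 0 of 4 without short spans, beside 22.1% and 24.7%. Without leading junctions 3 of 3 were higher and 0 lower, beside 27.6% and 39.6%. Genes lower were 1 under those scalings (22.0% and 15.4% of hosts), median of ratios (28.8%) and a fold of 3 (28.0%). Junctions lower in SW1990 against PANC-1 were 6 of 13 with no minimum of reads, beside 68.2% of 10520 junctions. In scalings of the endoplasmic reticulum list, chosen after seeing the data, hosts lower in SW1990 against HPDE were 0 under both scalings to back-splice reads. Of all hosts, 11.2% (total) and 8.66% (outside the abundant loci) were lower. In SW1990 against PANC-1 hosts lower were 5 under total reads and 4 outside the abundant loci, beside 22.0% and 15.4% of all hosts. In that last setting 10 were higher, beside 47.0% of all hosts. Ratios that crossed 1 without leading junctions were P4HB (20), PDIA3 (0.353) and CANX (0.171) in PANC-1 over HPDE and PDIA3 (9.56) and CANX (3.55) in SW1990 over PANC-1. Without short spans P4HB crossed to at most 0.00369 in SW1990 over HPDE and had no value in SW1990 over PANC-1. With scaling, PDIA3 in SW1990 over PANC-1 crossed to 1.02 (total) and 1.36 (outside the abundant loci), where CANX crossed to 1.01, and CANX in PANC-1 over HPDE to 0.916. The settings' own construction accounts for the leading-junction and short-span changes; for the others the cause was not tested. Scaling to total back-splice reads, to those outside the abundant loci and by median of ratios shifted all log2 ratios by -0.61, -0.77 and -0.26 in PANC-1 over HPDE, 0.35, 0.60 and 0.21 in SW1990 over HPDE, and 0.96, 1.37 and 0.55 in SW1990 over PANC-1. No paired analysis was possible because each line had 1 library. Junctions with 1 to 7 reads over all lines fell below the 10-read minimum and cannot show a difference of a few fold at this depth. A low count in 1 line can where the other has many reads, as with 7 PANC-1 and 116 HPDE reads at exons 2 to 3 of CANX.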
